A study of Mus musculus with 4 samples.

Results

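The genes described here encode the machinery of the synaptic vesicle and of exocytosis. They were 46 genes, taken by symbol from a list of synapsins, vesicle membrane proteins, synaptotagmins, SNARE proteins and their regulators, Rab3 proteins, priming factors and active zone scaffolds. All 46 were found among the 17778 genes of the table, and all 46 reached the minimum of 0.5 RPKM (read number corrected for gene length and sequencing depth) in either group. The list itself uses no measured value, although it was chosen with earlier results of these data known. The mRNA came from the medial prefrontal cortices of male C57BL/6 mice that were juvenile at the start. The CUMS group (2 libraries) had gone through chronic unpredictable mild stress, with social isolation and stressors such as restraint, damp bedding, noise and disturbed light cycles, and its mice had shown depression-like behaviors in sucrose preference, Y-maze and forced swimming tests. The control group (2 libraries) was not stressed, and RNA was isolated mouse by mouse, although whether 1 library held RNA of 1 mouse is not given in the sources used here. Only those stressed mice that met the behavioral criteria were used, so the CUMS group holds stressed mice selected by behavior.

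A nerve terminal stores neurotransmitter in small vesicles, which are tethered near the release site, docked at the membrane and primed. The SNARE proteins of the vesicle and of the plasma membrane then zip into a complex, and calcium binding to a synaptotagmin triggers fusion. Most of these proteins come as families of paralogs, and many paralogs are used by different kinds of neurons, so that a cortical sample holds mixtures of them.

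For each gene the table held 1 mean RPKM per group, which the authors had formed over the libraries of that group. No value of a single library was used here, so no spread between mice and no test between the groups could be given, and every difference below compares 2 group means. The fragments behind the means were estimated from the steps between low values as 15314765 in the control and 15338394 in the CUMS group, over both libraries of each. This estimate lies below the read numbers that the study gives, and every interval below rests on it. A 95% counting interval of the log2 ratio of CUMS over control was formed from them by the exact binomial method. This interval covers counting error only and says nothing about differences between mice. Because values were averaged over bulk tissue, fewer cells of a type and less RNA per cell cannot be told apart.

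The sequences before the starts of Sv2c, Sv2b and Stx1a are shown because Sv2c and Sv2b lay at opposite ends of one vesicle protein family and Stx1a had the highest ratio of all 46 genes. The 250 bases before the start of each gene are given as RefSeq lists them in build GRCm38.p6, on the strand of the gene, with capitals for matches to the GC box letters GGGCGG or the TATA box letters TATAAA, in either direction. The Sv2c window lies at chr13:96132578-96132827 on the minus strand, outside any gene of the GENCODE annotation, and 70.8% of its bases are G or C. The Sv2b window is the most upstream of 4 listed starts, at chr7:75309263-75309512 on the minus strand, inside the oppositely oriented gene 1500012K07Rik but outside its exons, with 48.8% G or C. The Stx1a window lies at chr5:135023232-135023481 on the plus strand, outside any annotated gene, with 62% G or C.
Sv2c: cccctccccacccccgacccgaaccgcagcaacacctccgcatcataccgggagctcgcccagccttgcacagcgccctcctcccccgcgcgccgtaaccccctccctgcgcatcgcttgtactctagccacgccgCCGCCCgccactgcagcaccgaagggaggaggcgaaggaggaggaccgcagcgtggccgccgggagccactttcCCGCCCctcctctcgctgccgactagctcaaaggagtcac
Sv2b: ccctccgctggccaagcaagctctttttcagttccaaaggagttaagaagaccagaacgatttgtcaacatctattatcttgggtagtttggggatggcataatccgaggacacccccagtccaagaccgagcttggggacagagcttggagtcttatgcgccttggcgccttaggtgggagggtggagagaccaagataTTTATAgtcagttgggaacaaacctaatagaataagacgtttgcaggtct
Stx1a: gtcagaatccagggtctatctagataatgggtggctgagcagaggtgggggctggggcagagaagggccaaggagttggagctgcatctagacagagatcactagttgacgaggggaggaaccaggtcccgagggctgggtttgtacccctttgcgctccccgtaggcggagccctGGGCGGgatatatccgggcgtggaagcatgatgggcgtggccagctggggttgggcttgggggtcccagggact

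The Sv2c window holds 2 GC boxes, the Stx1a window 1, and the Sv2b window none but 1 TATA box match on the opposite strand. Promoter windows were listed for 33 of the 46 genes, and 25 of these (75.8%) held a GC box before at least 1 start, against 35.4% of the 27025 genes listed in all. The 27025 are all genes with a listed window, whether or not they were expressed here. A gene with several starts also had more chances of a match, so these shares are not matched for level or for number of starts. A TATA box stood before 2 of the 33 (6.06%, all genes 14.3%). A TGACGT motif, the core of the cAMP response element, stood before 2 (6.06%, all genes 7.29%), one of them Syn1. The median G or C content was 61% over the 44 windows of these genes and 52.4% over all 32851 windows. None of the 3 motifs overlaps another in letters, a match describes letters only, and both Sv2c with the lower mean and Stx1a with the higher mean held a GC box. No window was listed for Syt13, Syt12, Rims2, Syngr3, Syt5, Syn3, Doc2b, Syt4, Vamp2, Syt7, Syt17, Doc2a and Snap25.

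The vesicle and exocytosis genes were among the more abundant mRNAs of the tissue. Their median level was 48.85 RPKM, against 8.89 RPKM for the 14257 genes of the table that passed the same minimum. Both means were above 100 RPKM for 18 of the 46 genes and both were under 10 RPKM for 9. None was listed at 0.01 RPKM, the value that stands in for 0 in the table. Together the 46 genes summed to 6000.67 RPKM in the control mice and 6362.18 RPKM in the depression-like mice, which was 1.55% and 1.64% of all RPKM.

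**Figure D1:**
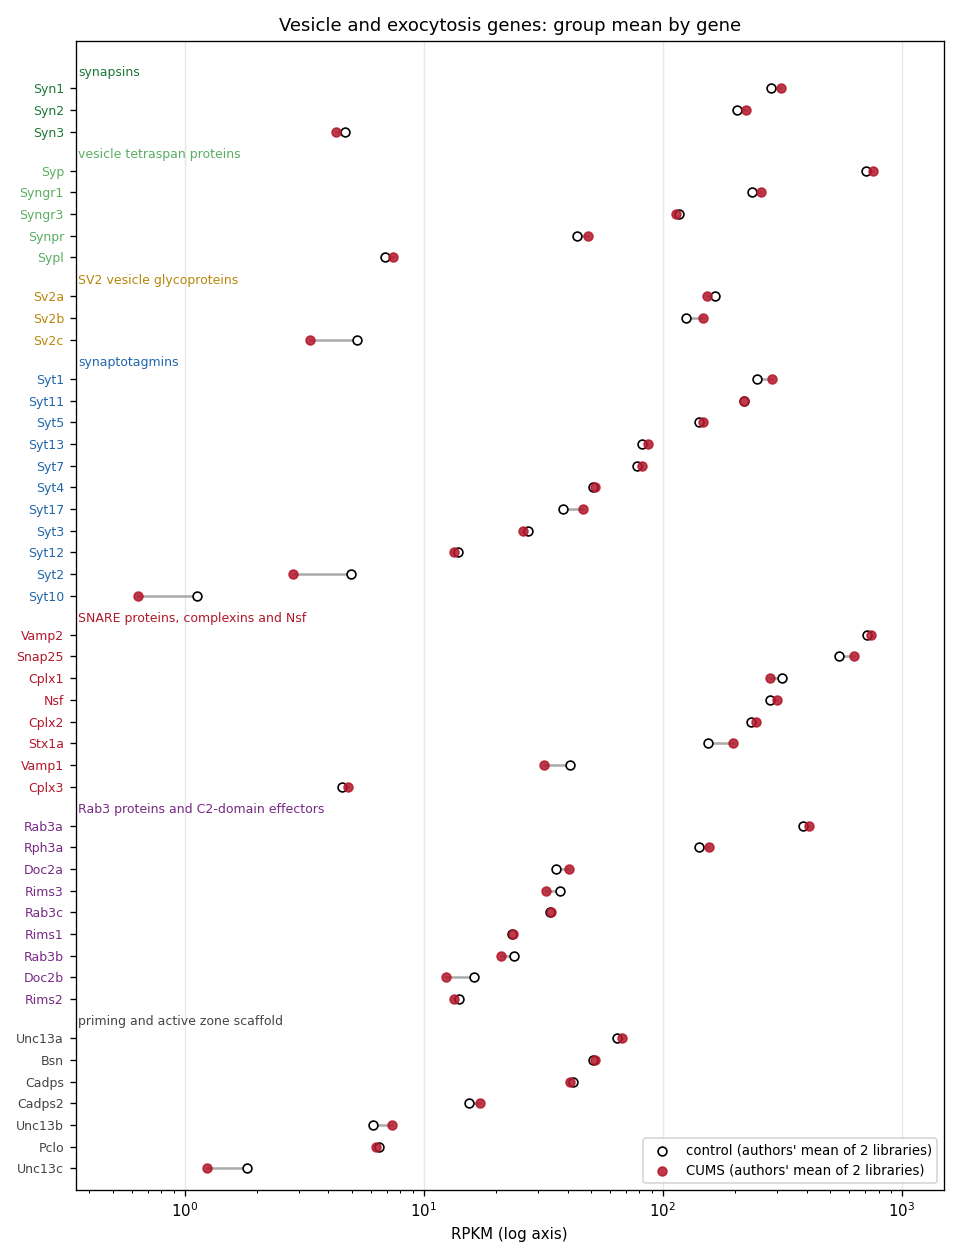
Mean RPKM of each of the 46 genes in the control and the CUMS group, on a log axis and grouped by role; each point is the authors' mean of a group and carries no error. Levels run from 0.64 RPKM for Syt10 in CUMS to 755.305 RPKM for Syp in CUMS, and for most genes the 2 points nearly coincide.

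Most of the release machinery stood close to its control level. The median log2 ratio of CUMS over control was 0.06 over the 46 genes and -0.02 over all 14257 genes, and the median size of the difference without its sign was 0.11 and 0.13. A lower CUMS mean was found for 18 of the 46 (39.1%), against 53.2% of all genes, and a higher one for 28, against 46.6%. No gene of the set was more than 1.5-fold higher, which 2.78% of all genes were, and 3 were more than 1.5-fold lower (6.52%), against 4.42% of all genes. With both directions combined this share of 6.52% was close to the 7.2% of all genes and is not a result about the set. The 3 were Syt10, Syt2 and Sv2c, of which Sv2c lay just inside the threshold at 1.56-fold lower, and the nearest gene outside it was Unc13c at 1.47-fold lower. Among the 41 genes that reached 5 RPKM in a group, Sv2c was the only one past 1.5-fold (2.44%), where 1.6% of all genes at that level were past it and 1.28% on the lower side. Among the 33 genes that reached 20 RPKM there was none, against 0.786%.

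At the smaller step of 1.2-fold, 9 genes were counted (19.6%), against 24.9% of all genes. The 3 higher ones were Stx1a, Syt17 and Unc13b (all genes, 10.4% higher), and the 6 lower ones were Syt10, Syt2, Sv2c, Unc13c, Doc2b and Vamp1 (all genes, 14.6% lower). The counting interval left out 0 for 30 of the 46 genes (65.2%), 21 above and 9 below, where 29.4% of all genes had such an interval (12.6% above, 16.8% below). Of the 33 genes that reached 20 RPKM, 24 had such an interval (72.7%), 19 above and 5 below, against 44.6% of all genes that reached it (23.5% above, 21% below). Even there the median level was 136.102 RPKM for the 33 genes and 39.575 RPKM for all genes. More fragments narrow the interval, so these shares are not matched for level.

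**Figure D2:**
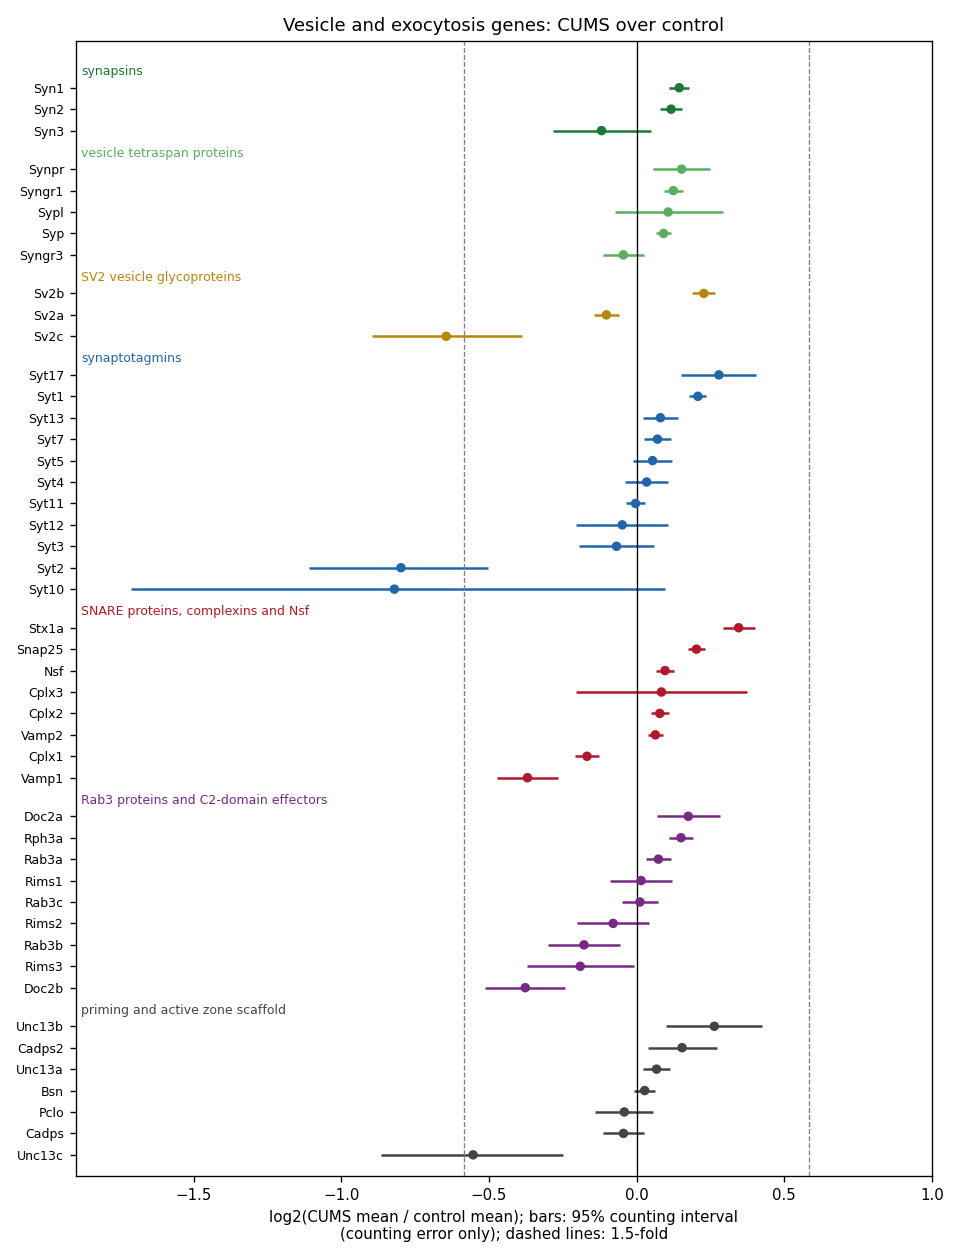
Log2 ratio of the CUMS over the control mean for each of the 46 genes, grouped by role; bars are 95% counting intervals, which hold counting error only. Ratios run from -0.82 for Syt10 to 0.35 for Stx1a, and the 3 genes past 1.5-fold lie on the lower side.

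The SNARE proteins, which form the fusion complex itself, held the highest ratio of the set. Stx1a (gene 20907, chr5:135023482-135051100), syntaxin of the plasma membrane, had 155.29 RPKM in control and 197.365 RPKM in CUMS. Its log2 ratio was 0.35 (counting interval 0.29 to 0.40, from 4807 and 6119 fragments). Snap25 (gene 20614, chr2:136713439-136782428), the second plasma membrane partner, had 546.14 and 628.59 RPKM. Its log2 ratio was 0.20 (0.17 to 0.23, 17429 and 20090 fragments), so both plasma membrane SNAREs had the higher mean in CUMS, beyond counting error.

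The vesicle partners differed between themselves. Vamp2 (gene 22318, chr11:69088528-69092381), the main vesicle SNARE of forebrain terminals, had 714.07 and 746.285 RPKM, a log2 ratio of 0.06 (0.04 to 0.09, 23098 and 24176 fragments). Vamp1 (gene 22317, chr6:125215581-125222306), its paralog, which is prominent in the brainstem and spinal cord, had 41.035 and 31.765 RPKM. Its log2 ratio was -0.37 (-0.47 to -0.27, 1740 and 1349 fragments). Vamp1 thus made up 5.43% of the summed RPKM of both genes in control and 4.08% in CUMS.

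Complexins clamp and assist the SNARE complex. Cplx1 (gene 12889, chr5:108518554-108550027), one of the 6 most abundant genes of the set, had 316.705 RPKM in control and 281.91 RPKM in CUMS, a log2 ratio of -0.17 (-0.21 to -0.13, 10495 and 9356 fragments). Cplx2 went from 233.24 to 246.295 RPKM, and its interval of 0.05 to 0.11 lay on the other side of 0. The share of Cplx1 in the complexin RPKM was 57.1% in control and 52.9% in CUMS. Cplx3, a rare complexin in the cortex, had 4.57 and 4.845 RPKM with an interval across 0. Nsf, the ATPase that takes spent SNARE complexes apart, had 280.12 and 299.485 RPKM, with a log2 ratio of 0.10 (0.07 to 0.13).

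Synaptotagmins sense calcium or traffic vesicles, and the 11 of them spread more widely than any other family here. Syt1 (gene 20979, chr10:108497650-109010980), the fast calcium sensor of most forebrain synapses, had 248.99 RPKM in control and 287.56 RPKM in CUMS. Its log2 ratio was 0.21 (0.18 to 0.24, 17709 and 20483 fragments). Syt2 (gene 20980, chr1:134646534-134753149), the fast sensor of many hindbrain synapses and of parvalbumin interneurons, had 4.955 and 2.85 RPKM. Its log2 ratio was -0.80 (-1.11 to -0.50, 251 and 144 fragments), so the pair of fast sensors lay on opposite sides of 0.

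Syt10 (gene 54526, chr15:89773714-89841980), a sensor for growth factor secretion in the olfactory bulb, had the lowest level and the lowest ratio. It had 1.13 RPKM in control and 0.64 RPKM in CUMS, a log2 ratio of -0.82. Only 31 and 18 fragments stood behind these means, and the interval of -1.71 to 0.10 held 0. With 2 times the estimated fragments it would run from -1.42 to -0.17, so that whether counting error covers the difference depends on the depth estimate. Syt17 (gene 110058, chr7:118380713-118448583), an atypical synaptotagmin, lay at the other end with 38.125 and 46.265 RPKM, a log2 ratio of 0.28 (0.15 to 0.41, 925 and 1124 fragments).

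The remaining synaptotagmins had ratios near 0. Syt7, a slow high-affinity sensor, had 77.925 and 81.85 RPKM, and Syt13, which does not bind calcium, had 81.87 and 86.58 RPKM, both with intervals just above 0. The other 6 had intervals that held 0, namely Syt3 (27.41 and 26.15 RPKM), Syt4 (50.995 and 52.22 RPKM), Syt5 (141.46 and 146.87 RPKM), Syt11 (219.29 and 218.76 RPKM) and Syt12 (13.92 and 13.46 RPKM), besides Syt10. Syt4 and Syt11, which sit on vesicles without acting as fast calcium sensors, thus had means that differed by less than the counting error.

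Vesicle membrane proteins made up a second abundant block. Syp (gene 20977, chrX:7638580-7653256), synaptophysin, was the most abundant gene of the set with 708.905 RPKM in control and 755.305 RPKM in CUMS. Its log2 ratio was 0.09 (0.07 to 0.12, 26300 and 28064 fragments). Its relatives Synpr, synaptoporin, with 43.72 and 48.595 RPKM, and Syngr1, a synaptogyrin, with 236.67 and 258.015 RPKM, had intervals above 0 as well. Sypl, a relative expressed in many tissues, had 6.89 and 7.42 RPKM, and Syngr3 had 116.79 and 113.23 RPKM, both with intervals across 0.

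The SV2 glycoproteins, transporter-like proteins of the vesicle membrane, lay on both sides of 0. Sv2a, the binding site of the antiepileptic drug levetiracetam, had 165.125 RPKM in control and 153.84 RPKM in CUMS, with a log2 ratio of -0.10 (-0.14 to -0.06). Sv2b (gene 64176, chr7:75114894-75309262) had 125.38 and 146.825 RPKM, a log2 ratio of 0.23 (0.19 to 0.27, 10118 and 11866 fragments). Sv2c (gene 75209, chr13:95959443-96132577), the form enriched in the basal ganglia, had 5.245 and 3.355 RPKM, a log2 ratio of -0.64 (-0.89 to -0.39, 333 and 214 fragments). The summed RPKM of the family moved little, from 295.75 to 304.02, while Sv2a made up 55.8% of it in control and 50.6% in CUMS and Sv2b 42.4% and 48.3%.

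Synapsins tether vesicles to one another and to the cytoskeleton. Syn1 (gene 20964, chrX:20860511-20920918) had 283.33 RPKM in control and 313.2 RPKM in CUMS, a log2 ratio of 0.14 (0.11 to 0.18, 13677 and 15142 fragments). Syn2 had 205.55 and 222.91 RPKM with an interval above 0, and the rare Syn3 had 4.685 and 4.315 RPKM with an interval across 0. The 2 abundant synapsins were therefore higher in CUMS beyond counting error, and the family summed to 493.565 RPKM in control mice and 540.425 RPKM in depression-like mice.

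Rab3 proteins and their effectors bring vesicles to the release site. Rab3a (gene 19339, chr8:70754703-70758608), the main vesicle GTPase, had 388.01 RPKM in control and 408.455 RPKM in CUMS, a log2 ratio of 0.07 (0.03 to 0.12, 8621 and 9089 fragments). Rab3b had 23.875 and 21.105 RPKM with an interval below 0, and Rab3c had 33.68 and 33.95 RPKM with an interval across 0. Rph3a, rabphilin, an effector of Rab3, had 141.385 and 156.92 RPKM, a log2 ratio of 0.15 (0.11 to 0.19). Rims proteins link Rab3 to the active zone. Rims1 had 23.505 and 23.755 RPKM, Rims2 had 14.125 and 13.37 RPKM, and Rims3, the short form, had 37.115 and 32.52 RPKM, of which Rims3 alone had an interval off 0, from -0.37 to -0.01.

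Doc2 proteins are calcium sensors linked to spontaneous and asynchronous release. Doc2a had 35.8 RPKM in control and 40.425 RPKM in CUMS, with an interval of 0.07 to 0.28. Doc2b (gene 13447, chr11:75768270-75796060) had 16.18 and 12.46 RPKM, a log2 ratio of -0.38 (-0.51 to -0.24, 1034 and 797 fragments). The 2 paralogs lay on opposite sides of 0, and Doc2b made up 31.1% of their RPKM in control and 23.6% in CUMS.

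Priming factors and scaffolds of the active zone were the least abundant group. Unc13 proteins prime docked vesicles. Unc13a, the main form of the cortex, had 64.205 RPKM in control and 67.29 RPKM in CUMS, with an interval of 0.02 to 0.11. Unc13b (gene 22249, chr4:43046193-43264873) had 6.165 and 7.4 RPKM, a log2 ratio of 0.26 (0.10 to 0.42, 582 and 699 fragments). Unc13c (gene 208898, chr9:73479422-74008155), best known from the cerebellum, had 1.82 and 1.24 RPKM, a log2 ratio of -0.55 (-0.86 to -0.25, 220 and 150 fragments).

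The rest of this group differed little. The scaffolds Bsn (bassoon, 51.05 and 52.035 RPKM) and Pclo (piccolo, 6.5 and 6.315 RPKM) had intervals that held 0. Cadps, a priming factor of dense core vesicles, had 42.285 and 41.005 RPKM, also with an interval across 0. Its paralog Cadps2 had 15.44 and 17.18 RPKM, with an interval of 0.04 to 0.27.

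By role, the median log2 ratio was 0.12 for the 3 synapsins, 0.11 for the 5 tetraspan proteins (Syp and its relatives), 0.08 for the 8 SNARE proteins, complexins and Nsf, 0.03 for the 11 synaptotagmins, 0.03 for the 7 priming and scaffold genes, 0.01 for the 9 Rab3 proteins and effectors, and -0.10 for the 3 SV2 proteins. Counting intervals above and below 0 numbered 5 and 2 among the SNARE group, 4 and 1 among the synaptotagmins, 3 and 3 among the Rab3 group, 3 and 1 among the priming and scaffold genes, 3 and 0 among the tetraspan proteins, 2 and 0 among the synapsins, and 1 and 2 among the SV2 proteins, where 12.6% and 16.8% of all genes had such intervals. Those shares cover all genes from 0.5 RPKM, with a lower median level, so they are not matched for level. The summed level of every role was higher in CUMS, from 2291.17 to 2436.54 RPKM for the SNARE group and from 906.07 to 963.205 RPKM for the synaptotagmins.

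The genes of one family were then compared by a rule that did not use their ratios, each paralog against the most abundant gene of its family. Of 26 such pairs in 11 families, 18 paralogs had a lower log2 ratio than the most abundant gene and 8 a higher one. The counting interval of the difference lay below 0 for 16 pairs, above 0 for 4 and across 0 for 6. The pairs of one family share the most abundant gene, so they are not independent. Syt1 entered 10 pairs, and without these the other 16 had 9 lower and 7 higher ratios, with 7 intervals below 0 and 4 above.

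Both largest differences were those against Syt1, of Syt10 at -1.03 on the log2 scale (-1.87 to -0.19) and of Syt2 at -1.01 (-1.30 to -0.71). In control mice Syt1 had 50.3 times the RPKM of Syt2, and in CUMS mice 101 times. Vamp1 against Vamp2 differed by -0.43 (-0.54 to -0.33), and Doc2b against Doc2a by -0.55 (-0.72 to -0.38). The 4 pairs with the opposite direction beyond counting error were Sv2b against Sv2a at 0.33 (0.27 to 0.39), Cplx2 against Cplx1 at 0.25 (0.20 to 0.30), Cadps2 against Cadps at 0.20 (0.06 to 0.33) and Unc13b against Unc13a at 0.20 (0.03 to 0.36). A difference of 2 log2 ratios does not depend on how the groups are scaled.

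**Figure D3:**
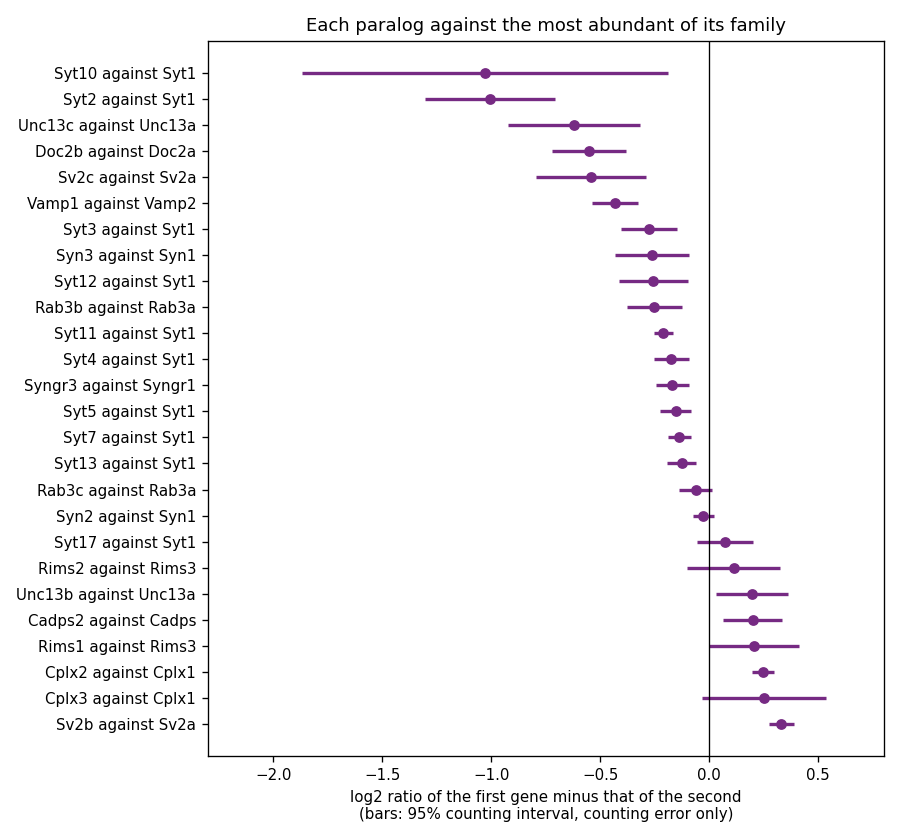
Difference between the log2 ratio (CUMS over control) of each paralog and that of the most abundant gene of its family; bars are 95% counting intervals. Of the 26 pairs, 16 intervals lie below 0 and 4 above it, from Syt10 against Syt1 at -1.03 to Sv2b against Sv2a at 0.33.

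Among these genes the rarer ones had the lower ratios. The 9 genes with a mean of both groups under 10 RPKM had a median log2 ratio of -0.12, and 6 of them had the lower mean in CUMS. The 14 genes between 10 and 50 RPKM had a median of -0.05 with 8 lower, and the 11 genes between 50 and 200 RPKM a median of 0.07 with 2 lower. The 12 genes from 200 RPKM had a median of 0.09 with 2 lower, these being Cplx1 and Syt11. Over all genes the share with a lower CUMS mean was 55.3%, 52.5%, 46.7% and 43.2% in the same order. Across the 46 genes Spearman's rho of level and log2 ratio was 0.48 and Pearson's r with the log2 level 0.60, and across all 14257 genes 0.083 and 0.050. Without the rarest genes both were lower, at 0.35 and 0.40 over the 41 genes that reached 5 RPKM and 0.39 and 0.36 over the 33 that reached 20 RPKM. These are descriptions over genes of the same libraries, which are not independent, and a low count widens the ratio of a rare gene.

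**Figure D4:**
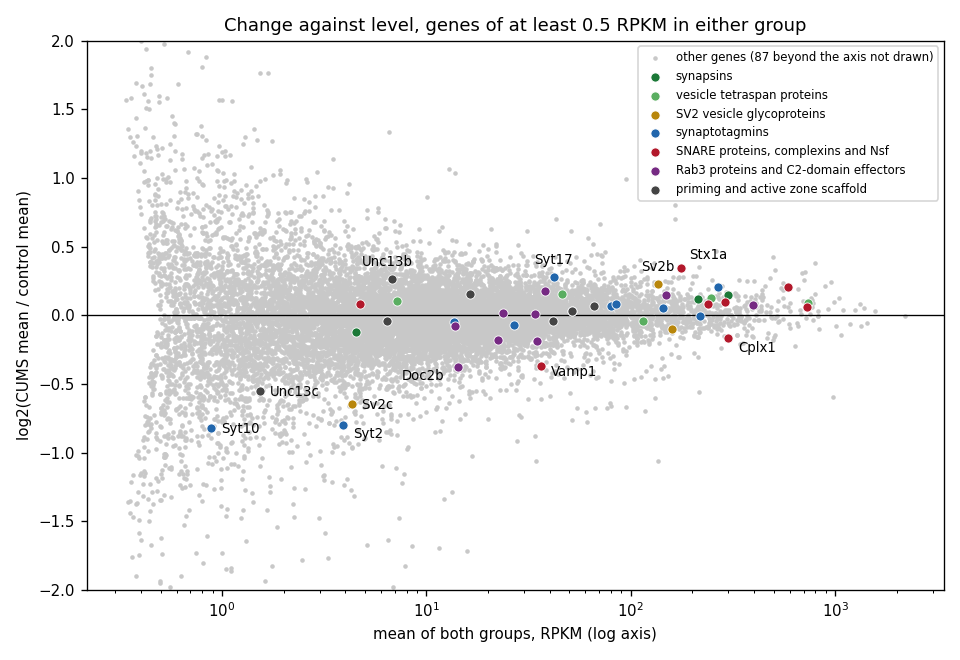
Log2 ratio of CUMS over control against the mean RPKM of both groups (log axis), with the 46 vesicle and exocytosis genes over all genes that passed the minimum of 0.5 RPKM. The rare genes Syt10, Syt2, Sv2c and Unc13c lie lowest, and the 12 genes from 200 RPKM lie between -0.17 and 0.21.

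The same pathway was then followed through 87 other genes of the vesicle cycle, all listed in the table, of which 85 passed the minimum of 0.5 RPKM. Their median log2 ratio was 0.02, and 34 (40%) had the lower mean in CUMS, against 53.2% of all genes. None was more than 1.5-fold higher, and 3 were more than 1.5-fold lower (3.53%), namely Slc18a3, Doc2g and Slc32a1, which is close to the 4.42% of all genes. The vesicle retrieval genes (27, clathrin adaptors, endophilins and the like) had a median of 0.01, and the 36 other fusion and docking genes one of 0.02.

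The vesicle proton pump, whose gradient loads transmitter into vesicles, stood at a median of 0.11 over its 16 subunit genes. Of these, 14 had the higher mean in CUMS, against 46.6% of all genes from 0.5 RPKM. Counting intervals lay above 0 for 12 of the 16 (75%) and below 0 for none. All 16 reached 20 RPKM, and of all genes that did so 23.5% had an interval above 0 and 21% one below. Neither comparison is matched for level. The median was 181.489 RPKM for the pump genes, 39.575 RPKM for all genes that reached 20 RPKM and 8.89 RPKM for all genes from 0.5 RPKM. More fragments narrow the interval. The pump genes summed to 3529.38 RPKM in control mice and 3772.8 RPKM in depression-like mice.

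Slc17a7, the vesicular glutamate transporter of cortical excitatory neurons, had 635.39 RPKM in control and 791.26 RPKM in CUMS, a log2 ratio of 0.32 (0.29 to 0.34). Slc32a1, the vesicular transporter of GABA, had 76.715 and 44.67 RPKM, a log2 ratio of -0.78 (-0.86 to -0.70). Slc18a3, the vesicular acetylcholine transporter, had 2.73 and 0.77 RPKM, from 99 and 28 fragments. The other 2 vesicular glutamate transporters, Slc17a6 (2.495 and 2.435 RPKM) and Slc17a8 (1.075 and 0.93 RPKM), had intervals across 0, as did the monoamine transporter Slc18a2 (1.235 and 0.85 RPKM). Over the 6 transporters the median was -0.37, and Slc17a7 alone had the higher mean in CUMS.

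Among the other vesicle cycle genes of at least 5 RPKM, high ratios were those of Slc17a7, Syt16 (30.365 and 37.155 RPKM, log2 ratio 0.29) and Sh3gl2 (endophilin A, 110.6 and 129.195 RPKM, 0.22). The 4 lowest were those of Doc2g (12.95 and 4.045 RPKM, -1.68), Slc32a1, Ppfia4 (a liprin of the active zone, 20.71 and 15.455 RPKM, -0.42) and Syngr2 (5.645 and 4.27 RPKM, -0.40). Doc2g is at the same time a marker of the olfactory bulb in the lists below.

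Markers of cell types and of neighboring regions differed between the 2 groups as well, and many differed by more than the release genes. Of all genes from 0.5 RPKM, 46.6% had the higher and 53.2% the lower mean in CUMS. All 9 markers of excitatory neurons of the neocortex had the higher mean in CUMS, with a median log2 ratio of 0.33, with Camk2a lowest at 0.21, and sums of 2287.02 RPKM in control mice and 2813.76 RPKM in depression-like mice. All 8 markers of GABAergic neurons had the lower mean, with a median of -0.67, with Gad2 lowest at -0.88, and sums of 467.485 and 326.875 RPKM. Within the interneurons the picture was uneven. Of 6 markers of fast-spiking interneurons, 5 reached the minimum, 3 of them lower, from Lhx6 at -0.43 to Pvalb at 0.19, with sums of 132.065 and 126.63 RPKM. Tac1, among the lower ones, was the largest part of both sums (50.455 and 47.01 RPKM), and its counting interval held 0. The 7 markers of other cortical interneurons had a median of 0.18, from Adarb2 at -0.34 to Vip at 0.51, with sums of 854.235 and 1035.67 RPKM. Cck alone, with 421.315 and 565.445 RPKM, made up most of the difference between these sums, and 2 of the 7 had the lower mean in CUMS. Which cells the mRNA of Tac1 and Cck came from was not tested, so the sums of both lists are not a measure of interneurons alone.

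Markers of regions beside the medial prefrontal cortex were also followed. Whether tissue of these regions was in the samples was not tested. All 10 markers of striatal projection neurons had the lower mean in CUMS, with a median of -0.30, from Penk at -0.46 to Ppp1r1b at -0.17, and sums of 573.555 and 463.37 RPKM. Of 11 markers of septum and hypothalamus, 9 reached the minimum and all 9 were lower, with a median of -1.98 and sums of 193.54 and 96.26 RPKM. Their range ran from Gal, with 2.205 and 0.1 RPKM and 1 fragment in CUMS, to Hap1 at -0.67. Hap1 alone, with 115.88 and 73.03 RPKM, made up most of both sums. Of these markers, Zic1, Dlk1, Magel2, Peg10, Hap1, Baiap3 and Igsf1 are among the lowered genes that the study reported from the same libraries. Their direction was therefore known beforehand. All 7 olfactory bulb markers found in the table were lower, with sums of 68.565 and 31.955 RPKM, from Omp, with 1.505 RPKM in control and listed at 0.01 in CUMS, to Cdhr1 at -0.56. Th, Doc2g and Calb2 of these are also among the lowered genes of the study. Calb2 alone, with 36.075 and 19.115 RPKM, made up most of both olfactory bulb sums. Whether the mRNA of Hap1 and Calb2 came from these regions was not tested. Markers of the labelled tissue, the neocortex, were thus all present in both groups. The markers of striatum, septum, hypothalamus and olfactory bulb that passed the minimum had higher means in control. However, Gal, Oxt, Omp, Eomes and Tbx21 passed it through the control mean alone, and such genes are lower in CUMS by construction. Ghrh (0.135 and 0.13 RPKM) and Avp (0.14 and 0.145 RPKM), which did not reach the minimum, had nearly equal means.

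All 8 markers of mature oligodendrocytes were lower, with a median of -0.51, from Cldn11 at -0.68 to Cnp at -0.31, and sums of 1943.8 and 1322.93 RPKM. The other non-neuronal cells differed less in their medians. The 7 astrocyte markers had a median of 0.05, from Gfap at -0.41 to Aqp4 at 0.12, with sums of 518.505 and 521.73 RPKM. The 6 microglia markers had a median of 0.08, from Tmem119 at -0.01 to P2ry12 at 0.54, with sums of 131.6 and 140.17 RPKM. The 5 endothelial markers had a median of -0.12, from Cldn5 at -0.61 to Tek at 0.01, with sums of 60.52 and 45.78 RPKM.

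**Figure D5:**
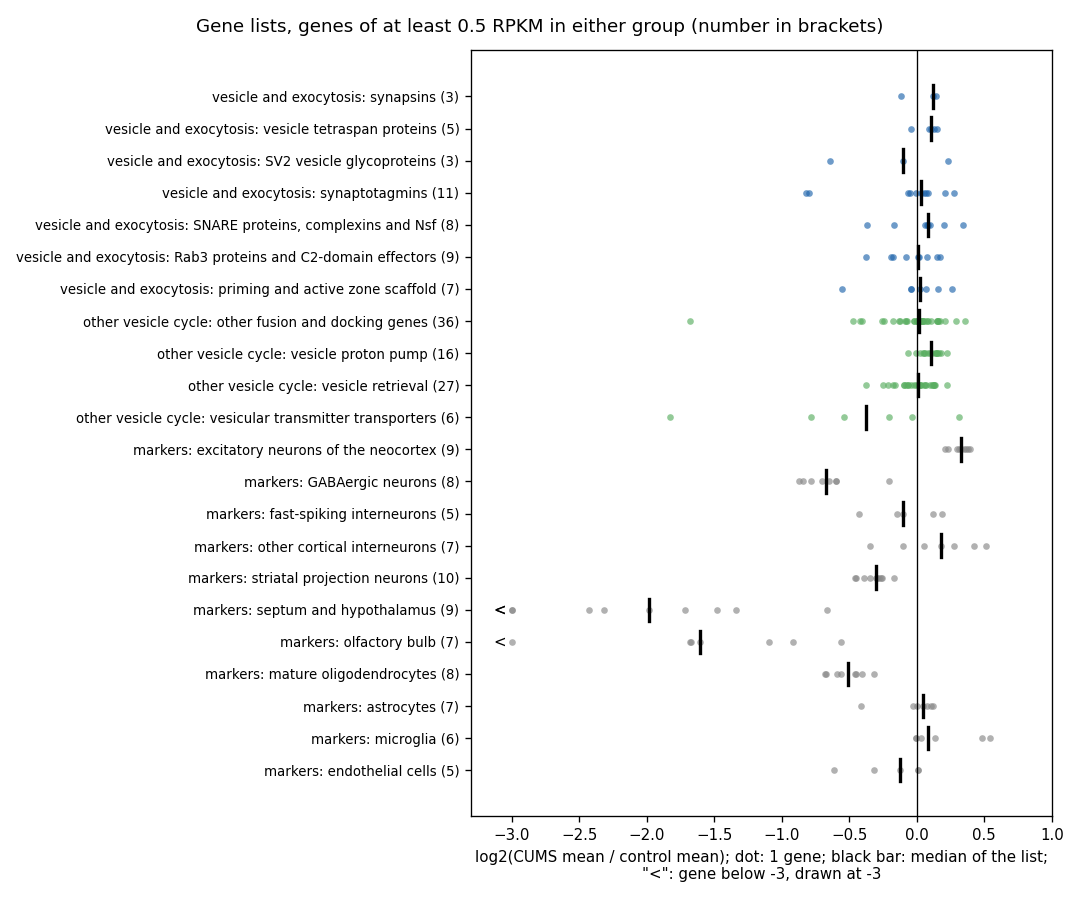
Log2 ratio of CUMS over control for every gene that passed the minimum of 0.5 RPKM in the 7 roles of the vesicle and exocytosis genes, in 4 groups of other vesicle cycle genes and in 11 lists of cell type and region markers; black bars are medians. The release genes lie mostly within -0.4 and 0.4, while the excitatory markers lie above 0 and the GABAergic, striatal, septal, olfactory and oligodendrocyte markers below 0.

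These marker differences stand beside the differences of the release genes, and their part in those was not tested. Among the GABAergic and oligodendrocyte markers, Gad1, Gad2, Slc32a1, Mbp, Mobp and Cldn11 are likewise among the lowered genes that the study reported.

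Reads from overlapping genes could also enter these values, since the sources used here do not state whether strand was used in counting. Another gene of the table overlaps 10 of the 46 genes in their RefSeq spans. Of the genes past 1.2-fold this concerned Unc13b alone, which meets Fam214b at its start (16.95 and 17.08 RPKM). The 6 genes with the lowest ratios overlapped none. Timp1 lies inside Syn1 with 0.36 and 0.145 RPKM, and Ino80e overlaps Doc2a with 24.48 and 21.4 RPKM.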

How the data were processed

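The mRNA of 4 libraries, 2 control and 2 CUMS, was measured by paired-end sequencing of poly(A) RNA from the medial prefrontal cortex. According to the submitters' processing notes and the methods, TopHat 1.0.12 and Bowtie 0.11.3 were used to align reads to build mm10. Gene annotation and use of strand are not given in the sources used here. The authors deposited RPKM per gene as 1 mean per group, and values of single libraries were not analysed here. The table also held the gene length and the authors' own comparison (a log2 ratio, its direction and a NOISeq probability), which was not used, and 0 columns of values were left unmapped.

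Groups were taken from the sample titles. Log2 ratios of the means were computed for genes that reached 0.5 RPKM in a group, without a pseudocount, with Python 3.11.15, numpy 2.4.6, pandas 2.3.3, scipy 1.17.1 and matplotlib 3.10.9. Fragments were estimated as mean times gene length divided by the value of 1 fragment. That value, 66.9 RPKM x bases in control and 66.8 in CUMS, was fitted to 406 and 392 low values, of which 87.9% and 87.5% came to whole numbers to within 0.15, and it assumes that both libraries of a group were equally deep. Intervals are exact (Clopper-Pearson) at 95%. They were tried on simulated counts with counting error only and equally deep libraries, which is what the method assumes. That trial checks the computation and cannot show how well the intervals hold for real libraries. The intervals cover counting error only, and fragments amplified by PCR are not independent molecules.

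Every one of the 46 genes was named with both means. Intervals, fragments and positions were given for the 6 highest and 6 lowest ratios and the 6 most abundant genes. Named as well were the 4 highest and 4 lowest other vesicle cycle genes of at least 5 RPKM and the extremes of each marker list, of which some are not reported here. The genes and lists were chosen with earlier results of these data known, and the comparison of paralogs was added after the values were seen. Positions and promoter windows are from RefSeq (GRCm38.p6). Of the 85 markers, 84 were in the table. Alternatives were 2 scalings, filters of 0, 5 and 20 RPKM, a pseudocount of 0.5 and fold thresholds of 1.2 and 2. No protein sequence was used here.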

Additional observations from a re-analysis of the deposited data

How the results depend on the processing

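The count of 3 genes past 1.5-fold depended on the threshold and on rare genes. It was 1 with at least 5 RPKM in either group (Sv2c), 1 with a pseudocount of 0.5 (Syt2), 0 with at least 20 RPKM (chosen after seeing the data), 9 at 1.2-fold and 0 at 2-fold. The median log2 ratio of the 46 genes stayed between 0.051 and 0.074, that of the other vesicle cycle genes between 0.014 and 0.053, and the share lower in CUMS between 27.3% and 39.1%. Scaling moved every log2 ratio by 0.015 or by -0.0076, and 1 gene near 0 changed sign (Syt11). With 0.5 or 2 times the estimated fragments, also chosen after seeing the data, 27 or 33 genes had a counting interval off 0 in place of 30, the added ones being Syt5, Syt10 and Bsn.

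No paired analysis was possible because the values used here were 1 mean per group. For the same reason, leaving out each replicate and a fit with limma were not run, and no statement on the spread between mice can be made.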
